A study of Mus musculus with 3 samples.

Results

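Long-term haematopoietic stem cells (LT-HSCs) are isolated from mouse bone marrow by the proteins on their surface, and 9 genes encoding such proteins are described here. Slamf1 (CD150) and Ly6a (Sca-1) encode antigens that the sort required. Cd48 and Cd34 encode antigens that the sort required to be absent. Procr (EPCR or CD201), Ly9 (CD229), Esam, Cd9 and Eng (endoglin, CD105) encode further antigens in use for stem cell sorting that were not part of this sort. The 9 genes were taken by name from 21728 protein-coding genes on the autosomes and X. The cells were LT-HSCs sorted by flow cytometry after enrichment for c-Kit, positive for Sca-1, c-Kit and CD150 and negative for lineage markers, CD48 and CD34, from wild-type female C57BL/6J mice aged 24 months. DOGMA-seq, which reads accessible chromatin (ATAC), RNA and oligonucleotide-tagged antibodies in the same cell, gave 3 libraries from 1 pool of cells. The labels do not number the mice in the pool, no younger or treated group was analysed here, and all cells carried the wild-type genotype. With 1 library per assay there was no replicate spread and no test was possible, so values are given with exact 95% Poisson, binomial or conditional binomial intervals, which cover counting error only.

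The surface code of the HSC rests on a few protein families. CD150, CD48 and CD229 are receptors of the SLAM family, which bind each other or themselves on neighbouring blood cells, and CD150 without CD48 marks stem cells while CD48 appears on their progeny. Sca-1 is a small protein held in the membrane by a lipid anchor and belongs to the Ly6 family. CD34 is a heavily glycosylated sialomucin that adult mouse LT-HSCs lack and that progenitors and endothelium carry. EPCR binds activated protein C, ESAM is a junction protein, endoglin is a co-receptor for TGF-beta family ligands, and CD9 is a tetraspanin. ATAC-seq reports where a transposase could cut chromatin, so it gives the openness of these genes and not the amount of their RNA or protein.

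Of 4369 barcodes called as cells, 3724 had antibody counts, and the 3629 with 10 or more antibody tags were used. They held 38498362 fragments on the nuclear chromosomes, with a median of 10287 per cell (3853 to 45069), a median of 1978 RNA UMIs and a median of 29 antibody tags. Promoter levels of marker lists describe the sorted cells. The lists were chosen with earlier results of these data known, and the HSC list holds Kit, whose product the sort required. Of 10 HSC markers, 7 lay above the median protein-coding gene, from 0.494 fragments per 1000000 nuclear fragments (FPM) at Mecom to 48.9 at Ctnnal1. None of 7 T cell and none of 8 myeloid markers did, against 1 of 6 B cell, 1 of 6 erythroid, 1 of 6 endothelial and 4 of 6 megakaryocyte markers. Their extremes were Lck (3.84) and Cd8a (0.0779) in the T cell list, Prtn3 (9.09) and Ly6g (0.130) in the myeloid list, Ebf1 (12.8) and Ms4a1 (0.0520) in the B cell list, Epor (13.7) and Hba-a1 (0.338) in the erythroid list, Kdr (19.2) and Ptprb (1.22) in the endothelial list, and Itga2b (21.5) and Ppbp (0.831) in the megakaryocyte list.

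Fragments were counted over the promoter, 1 kb on each side of the 5′ end of the gene, and over the gene region. The gene region is the gene body plus 2 kb upstream. The promoter was counted at the outermost annotated 5′ end only, so a low promoter level need not mean a closed gene. Mecom had 19 promoter fragments and 18012 over its gene region, and Vwf had 41 and 8342. Per kb of the gene region, 7 of 10 HSC markers again lay above the median gene. So did 2 of 7 T cell, 3 of 8 myeloid and 1 of 6 B cell markers. Of the erythroid, endothelial and megakaryocyte markers 2, 3 and 5 of 6 did. The lists were thus less clearly separated than at the promoter. The strongest open site of each gene was the 300 bp window with the most transposase insertions (fragment ends) between 10 kb upstream and 2 kb past the gene end. The following windows each held more insertions than any other window scanned at its gene and lay outside the promoter. They are mm10 (GRCm38.p6) sequence on the strand of the gene, read 5′ to 3′, and capitals mark letters of 3 short motifs of blood transcription factors, the GATA factor motif GATAA, the RUNX motif TGTGGT and the ETS motif GGAAGT, on either strand. The windows are chr2:155743001-155743300 (plus strand, 8.0 kb upstream of Procr), chr2:32638001-32638300 (plus strand, 8.4 kb upstream of Eng), chr1:171761851-171762150 (plus strand, 5.1 kb upstream of Slamf1) and chr1:171699051-171699350 (plus strand, in an intron of Cd48).
Procr site: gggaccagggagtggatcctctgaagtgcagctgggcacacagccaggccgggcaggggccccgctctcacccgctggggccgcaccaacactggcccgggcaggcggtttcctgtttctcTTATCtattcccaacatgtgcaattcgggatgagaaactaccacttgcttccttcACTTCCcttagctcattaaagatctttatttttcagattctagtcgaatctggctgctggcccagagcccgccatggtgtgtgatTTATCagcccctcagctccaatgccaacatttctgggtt
Eng site: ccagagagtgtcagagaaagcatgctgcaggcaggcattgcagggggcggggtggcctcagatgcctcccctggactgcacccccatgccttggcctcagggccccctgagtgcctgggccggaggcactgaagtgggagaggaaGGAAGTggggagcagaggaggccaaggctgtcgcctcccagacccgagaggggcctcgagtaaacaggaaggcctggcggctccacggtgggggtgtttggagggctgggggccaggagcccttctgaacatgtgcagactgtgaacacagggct
Slamf1 site: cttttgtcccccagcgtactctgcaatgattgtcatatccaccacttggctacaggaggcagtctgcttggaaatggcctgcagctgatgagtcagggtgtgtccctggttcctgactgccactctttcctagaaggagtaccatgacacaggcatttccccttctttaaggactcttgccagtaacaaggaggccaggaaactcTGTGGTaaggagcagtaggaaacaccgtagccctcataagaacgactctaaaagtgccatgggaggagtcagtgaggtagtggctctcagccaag
Cd48 site: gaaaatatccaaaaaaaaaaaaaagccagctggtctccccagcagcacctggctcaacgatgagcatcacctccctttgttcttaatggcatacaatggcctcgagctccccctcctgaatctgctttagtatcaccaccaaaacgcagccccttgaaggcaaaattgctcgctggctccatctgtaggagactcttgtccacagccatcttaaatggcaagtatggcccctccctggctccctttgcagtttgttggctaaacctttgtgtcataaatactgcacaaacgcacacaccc

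For contrast, RefSeq promoters (GRCm38.p6, 250 bp before to 50 bp after the start) are shown for the marker with the highest promoter level, Cd9 (chr6:125494711-125495010, minus strand), and for the one with the lowest, Cd48 (chr1:171681742-171682041, plus strand). RefSeq promoters were at hand for 6 of the 9 genes, all but Ly6a, Ly9 and Esam.
Cd9 promoter: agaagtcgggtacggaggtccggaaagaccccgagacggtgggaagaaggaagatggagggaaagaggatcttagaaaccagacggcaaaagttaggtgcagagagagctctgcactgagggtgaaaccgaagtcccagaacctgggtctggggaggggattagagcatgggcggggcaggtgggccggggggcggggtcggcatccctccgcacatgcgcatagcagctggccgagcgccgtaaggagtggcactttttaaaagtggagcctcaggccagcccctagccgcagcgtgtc
Cd48 promoter: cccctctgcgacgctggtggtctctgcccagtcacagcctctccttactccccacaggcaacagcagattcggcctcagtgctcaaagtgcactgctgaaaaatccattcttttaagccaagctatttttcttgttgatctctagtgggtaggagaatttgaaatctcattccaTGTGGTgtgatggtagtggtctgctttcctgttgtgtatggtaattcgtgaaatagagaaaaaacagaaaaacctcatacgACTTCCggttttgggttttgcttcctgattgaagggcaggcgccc

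The Procr site held 2 matches to GATAA and 1 to GGAAGT, and the Eng site 1 GGAAGT. The Slamf1 site held 1 TGTGGT and the Cd48 site none of the 3. The strongest windows of Ly6a, Ly9 and Esam also lay over 1 kb from the 5′ end but are not printed. That of Ly6a held 2 GATAA and 1 TGTGGT, that of Esam 1 GATAA and 1 GGAAGT, and that of Ly9 none of the 3. Among the strongest windows of 6983 genes that lay over 1 kb from the 5′ end, GATAA stood in 20.7%, TGTGGT in 22.2% and GGAAGT in 29.3%. In 27025 RefSeq promoters the shares were 25.8%, 16.9% and 24.1%. The E-box CANNTG, which was not capitalised because it stood in 72.1% of both kinds of window, was found 3 times in the Procr site, 2 times in the Eng site, 2 times in the Slamf1 site and 3 times in the Cd48 site, and overlaps with the other motifs were allowed. The promoters of Cd9 and Cd48 differed in base composition, with 18 and 7 CG pairs and a GC content of 61.3% and 47.3%. A match is a description of the letters and no evidence that a factor is bound.

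The first question was how open the genes of the sorting code are in cells chosen by that code. At the promoter, 6 of the 9 genes lay below the median protein-coding gene, which had 10.2 FPM, against 49.9% of all genes by construction. Both genes sorted as present, Slamf1 and Ly6a, were among the 6, as were both sorted as absent, Cd34 and Cd48. Slamf1 (chromosome 1, 171767127 to 171801184, plus strand) had 165 promoter fragments, a level of 4.29 FPM (3.66 to 4.99). Ly6a (chromosome 15, 74994877 to 74998031, minus strand) had 115, a level of 2.99 (2.47 to 3.59). Cd34 (chromosome 1, 194938819 to 194961279, plus strand) had 284, a level of 7.38 (6.54 to 8.29), above both required markers with intervals that did not overlap. Cd48 (chromosome 1, 171682009 to 171705258, plus strand) had 74, a level of 1.92 (1.51 to 2.41), the lowest of the 9. The promoters of these 4 genes thus did not order as present over absent, although Cd48 stood below Ly6a and Slamf1. The sort also required c-Kit, whose gene Kit had 43.7 FPM (41.6 to 45.8) at the promoter. It excluded lineage antigens too, and the 8 genes listed for those had a median promoter level of 0.922 FPM. With fragments shorter than nucleosomal DNA, Ly6a was the lowest of the 9 promoters, at percentile 33.4 against 35.9 for Cd48.

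The 5 genes outside the sort ranged more widely. Cd9 (chromosome 6, 125460266 to 125494791, minus strand) was highest with 841 promoter fragments, 21.8 FPM (20.4 to 23.4), at percentile 65.8 of all genes. Esam (chromosome 9, 37528078 to 37538319, plus strand) followed with 571 fragments and 14.8 FPM (13.6 to 16.1), and Eng (chromosome 2, 32646595 to 32682669, plus strand) with 475 and 12.3 FPM (11.3 to 13.5). Procr (chromosome 2, 155751117 to 155755471, plus strand) had 304 fragments and 7.90 FPM (7.03 to 8.84), which could not be told from Cd34 within counting error. Ly9 (chromosome 1, 171588624 to 171607410, minus strand) had 179 and 4.65 FPM (3.99 to 5.38), which overlapped Slamf1. Esam held 1054 insertions in a window 2.27 kb inside the gene, at the start of a shorter annotated transcript. The best window within 500 bp of its counted 5′ end held 223, so its promoter level leaves out its strongest site. For promoters at the outermost 5′ end, the order from the top was Cd9, Esam, Eng, then Procr and Cd34 together, then Ly9 and Slamf1 together, then Ly6a and Cd48. That order changed with the counting. With short fragments Eng stood above Esam, Cd34 above Procr and Cd48 above Ly6a, and with promoters of 250 bp on each side Eng and Cd34 stood above Esam. In the 363 cells with 50 or more tags Procr stood above the median gene and Eng below it. The antibody to CD274 gave 77229 of all 114345 tags, so a minimum of summed tags rests mostly on CD274.

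**Figure D1:**
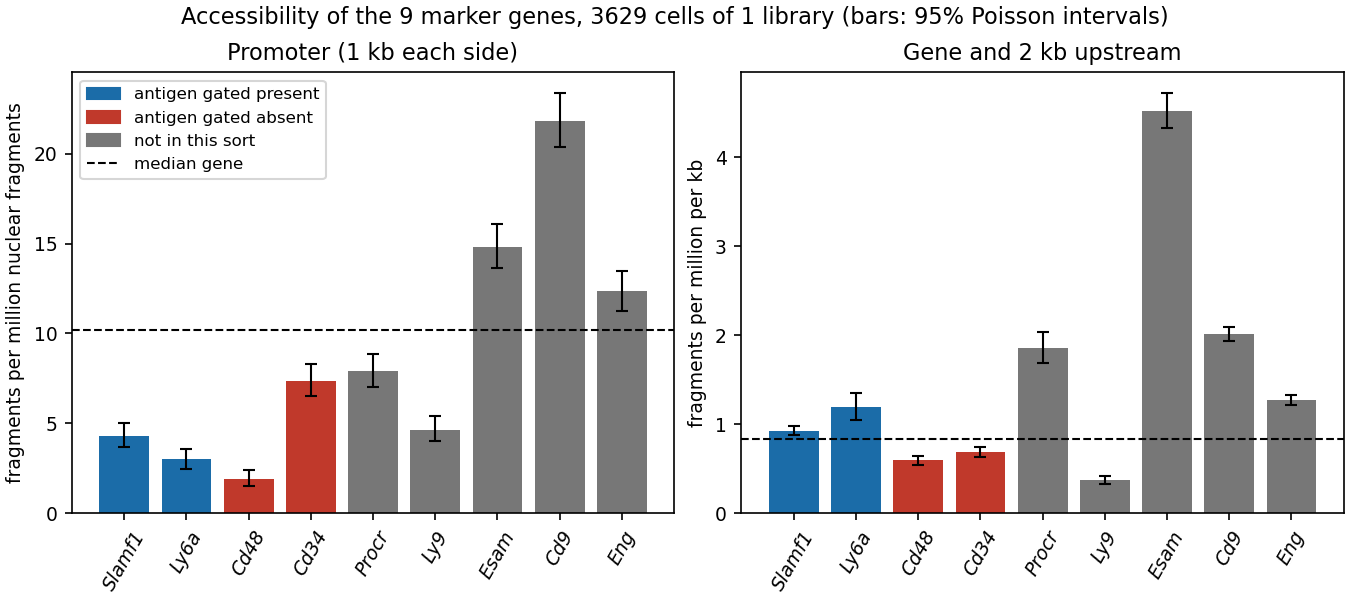
FPM at the promoter (left) and FPM per kb over the gene and 2 kb upstream (right) for the 9 genes in 3629 cells, with 95% Poisson intervals; colours give the place of the antigen in the sort and the dashed line is the median protein-coding gene. At the promoter only Cd9, Esam and Eng stand above the line, and over the gene region Cd48, Cd34 and Ly9 stand below it.

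Over the gene region, per kb of length, the picture changed. Only 3 of the 9 genes lay below the median gene of 0.835 FPM per kb, against 50% of all genes by construction. These were both genes sorted as absent, Cd48 at 0.593 (0.545 to 0.643) and Cd34 at 0.686 (0.634 to 0.741), and Ly9 at 0.369 (0.328 to 0.413). Slamf1 at 0.926 (0.876 to 0.978) and Ly6a at 1.19 (1.04 to 1.35), the genes sorted as present, lay above the median and above Cd48 and Cd34. Esam was highest at 4.52 (4.33 to 4.72), percentile 90.8, followed by Cd9 at 2.01 (1.94 to 2.09), Procr at 1.85 (1.68 to 2.03) and Eng at 1.27 (1.22 to 1.33). Counted only with fragments shorter than the DNA of a nucleosome, 5 of the 9 genes lay below the median, and the order of present over absent was lost. Slamf1 then had 0.215 FPM per kb (0.192 to 0.241) and Ly6a 0.161 (0.110 to 0.228), against 0.222 (0.194 to 0.254) for Cd48 and 0.179 (0.153 to 0.209) for Cd34, and all 4 lay below the median gene of 0.240. The counted regions of Ly9, Esam and Eng overlap those of Cd244a, Vsig2 and Fpgs, and ATAC fragments carry no strand, so their shared parts cannot be told apart. Ly6a lies among similar Ly6 genes, and the effect of sequence shared between them on its count was not tested.

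Family members put these levels in context. All 9 SLAM family genes lay below the median gene at the promoter, from 0.390 FPM at Slamf7 to 7.04 at Cd84, with a median of 2.47. In the Ly6 cluster 1 of 10 genes, Ly6e at 11.7, lay above it, and the lowest was Ly6f at 0.0779. Of 9 tetraspanins 6 lay above it, from Cd63 at 4.68 to Cd82 at 51.2, so Cd9 was near the list median of 21.5. Of 13 endothelial surface genes 6 lay above it, between Cdh5 at 1.56 and F11r at 22.2. In the EPCR pathway 4 of 7 did, from Proc, which encodes the protein C zymogen, at 1.69 to the thrombin receptor F2r at 35.3. Among 11 other genes used to sort or report stem cells 6 did, with Kit highest at 43.7 and Abcg2 lowest at 0.234. Abcg2 had 9 promoter fragments, at its outermost 5′ end, against 2665 over its gene region. Of 8 genes listed for the lineage cocktail 1 lay above the median gene, Ptprc at 14.96, which stands for the antigen B220. Cd8a was lowest at 0.0779. Fragments over Ptprc do not tell which form of its product a cell carries. Of the 12 genes encoding the antigens of the tagged antibodies 5 did, from 0.260 at Cd163 to 23.7 at Itgb3.

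For each of the 9 genes, most cells carried no fragment. The gene region of Cd9 had at least 1 fragment in 49.4% of cells (47.8 to 51.0), that of Esam in 41.0%, of Eng in 36.9% and of Slamf1 in 26.6%. For the others the share was 15.1% at Cd34, 13.5% at Cd48, 10.7% at Procr, 7.22% at Ly9 and 5.92% at Ly6a. At Ly6a, 3414 cells had no fragment, 195 had 1, 19 had 2 and 1 had 3 or more, although Sca-1 was required of every cell. At the promoters the share ran from 1.85% at Cd48 to 18.9% at Cd9, against 0.0827% at Cd8a, a T cell gene. A cell without a fragment need therefore not be a cell with a closed gene at this depth. With every cell thinned to 6000 nuclear fragments, which left out 244 of 3629 cells, the shares were 33.8% at Cd9, 17.4% at Slamf1, 7.50% at Cd48 and 3.28% at Ly6a.

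Counts per cell spread more than depth alone gives, and the intervals in this report do not allow for that spread. The Pearson dispersion, which is 1 for counts that follow the depth of the cell, was above that of the median gene (1.16 over 16089 genes) for 7 of the 9 genes, against 50% of those genes. Cd48 and Cd34, the genes sorted as absent, had the highest values, both 1.22 (percentile 84.4 and 84.5). Slamf1 at 1.21 (76.9), Ly9 at 1.21, Procr at 1.20 and Esam at 1.20 lay close behind. No interval was computed for the dispersion, so this order is not established. With cells thinned to 6000 nuclear fragments 6 of the 9 genes lay above the median. Eng at 1.16 (percentile 45.1) and Ly6a at 1.08 (percentile 4.18) lay below the median. The dispersion of a rare gene is imprecise, and 236 fragments lay behind that of Ly6a against 2828 behind that of Cd9.

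The next question was where in each gene the open chromatin lay. For 7 of the 9 genes the strongest window lay over 1 kb from the 5′ end, as it did for 40.3% of 17319 genes with 50 or more insertions in their strongest window. Esam is the exception in kind, since its window 2.27 kb inside the gene lies at the start of a shorter annotated transcript. Counted from every annotated transcript start, 6 of the 9 genes had a distal strongest window, as did 33.1% of genes. Only Cd9, with 834 insertions 0.04 kb past the start, and Cd34, with 291 insertions 0.03 kb past it, were strongest at the promoter.

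Procr and Eng had the strongest windows among the 9 genes, with intervals that overlapped. That of Procr lay 7.97 kb upstream, with 1481 insertions (1407 to 1558), against 236 in the best window within 500 bp of its 5′ end. In 22.8% of cells (21.4 to 24.2) at least 1 fragment fell in these 300 bp, against 10.7% with a fragment in the gene region, which leaves the window out. A further window 4.78 kb from the start, past the end of the gene, held 553 insertions. No annotated gene overlaps either of them. The nearest other protein-coding 5′ end was that of Gm17581, 7.28 kb from the upstream window and so nearer to it than that of Procr. Eng had a like layout, with 1400 insertions (1328 to 1475) in a window 8.44 kb upstream, seen in 20.1% of cells (18.8 to 21.5), and 410 at the promoter. In the Eng window 68.1% of fragments were shorter than nucleosomal DNA, the highest share of any strongest window among the 9, against 47.4% in the Procr window. Both upstream windows have their sequence printed above.

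The SLAM genes of the sort were also open away from their starts. Slamf1 had 468 insertions (427 to 512) in a window 5.13 kb upstream and 369 in an intron 6.27 kb inside the gene, against 98 at the promoter. Cd48 had its strongest window in an intron 17.2 kb inside the gene, with 416 insertions (377 to 458) in 6.72% of cells, against 68 at its promoter and 65 in a window 7.34 kb inside the gene. No other site of Cd48 reached 25% of that window, the share used here to list further sites. The required and the excluded SLAM receptor thus had strongest windows whose insertion counts overlapped within counting error. The nearest other 5′ end to the Cd48 window was that of Slamf7, 46.2 kb away. Ly9 had 169 insertions 6.69 kb upstream and 163 at the promoter, which could not be ranked, and windows of 500 bp put its strongest site at the promoter. Slamf1, Cd48 and Ly9 lie in the SLAM gene cluster of chromosome 1.

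Of the remaining genes, Ly6a had its strongest window, 133 insertions, 4.98 kb from the start at the very edge of the scan, and 65 at the promoter. A scan to 10 kb past the gene end, chosen after seeing the data, moved it to 9.30 kb with 501 insertions. The window at 9.30 kb lies nearer to the 5′ end of Ly6i, which is 9.62 kb beyond the window at 4.98 kb, than to Ly6a. The strongest windows of the other 8 genes moved by less than the 50 bp step of the scan. Esam held 1054 insertions (991 to 1120) at 2.27 kb, 645 at 2.97 kb and 413 at 0.98 kb upstream. Cd34 had further windows of 167 insertions past its end, in the antisense gene Gm16897, and of 114 in an intron. Cd9 had weaker windows of 227 to 232 insertions in introns and 3.51 kb upstream. For Slamf1, Ly6a, Procr, Ly9 and Eng the strongest window lay outside the gene region, so the levels above do not include it.

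**Figure D2:**
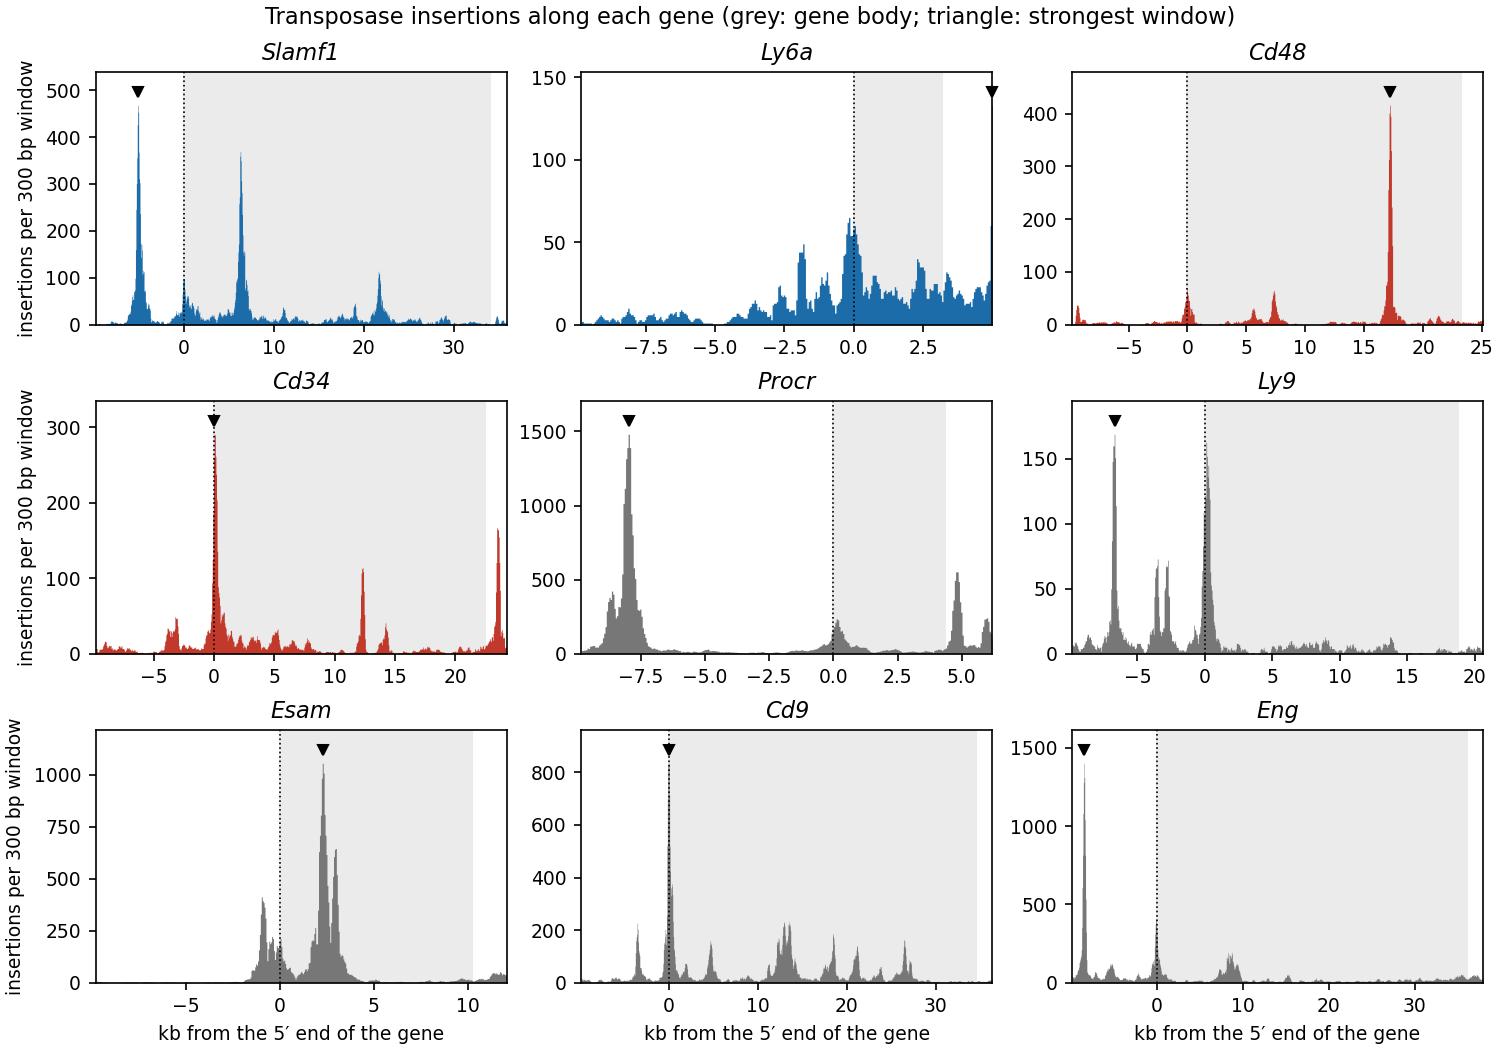
Transposase insertions per 300 bp window along each gene, in 3629 cells, by distance in kb from the 5′ end; grey marks the gene body, the dotted line the 5′ end and the triangle the strongest window. Cd9 and Cd34 peak at the dotted line, Procr and Eng peak about 8 kb upstream of it with 1481 and 1400 insertions, and the highest peak of Cd48, 416 insertions, lies in an intron.

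CD201, the product of Procr, was the only one of the 9 surface proteins with a tagged antibody in the panel, so its tags and the chromatin of its gene could be set side by side in the same cells. The share of CD201 tags that are background was not estimated, so cells with a tag are not called positive for the protein. The antibody carried the 15-base tag below.
CD201 tag: tatgatctgcccttg
Tags of CD201 were found in 1119 of 3629 cells (30.8%), at most 6 in a cell. Among the antibodies to macrophage antigens, those to CD163, CD206, CD68 and MERTK gave a tag in 1.96%, 2.26%, 7.74% and 40.3% of cells. Cells with and without a CD201 tag had similar ATAC depth, with medians of 10150 and 10357.5 nuclear fragments, and medians of 31 and 28 tags of the other antibodies.

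Procr accessibility did not differ detectably between cells with and without a CD201 tag. The gene region held 136 fragments in cells with a tag, 11.5 FPM (9.61 to 13.6), and 317 in cells without, 11.9 FPM (10.6 to 13.3). The log2 ratio was -0.052 (-0.356 to 0.239), and differences inside that interval could not be resolved at this depth. At the promoter the ratio was 0.011 (-0.360 to 0.364). At the strongest window, 8.0 kb upstream, counted after its signal had been seen, it was 0.077 (-0.120 to 0.268), from 324 and 690 fragments. The window past the gene end gave 0.157 (-0.180 to 0.481). By tag count, the upstream window had 25.9 FPM at 0 tags, 28.1 at 1, 21.5 at 2 and 36.7 (24.4 to 53.0) at 3 or more, the last from 70 cells and 28 fragments, and the intervals of all 4 overlapped. Within quartiles of the summed tags of the other antibodies the ratio over the gene region ran from -0.416 to 0.243 with intervals that all held 0, and combined it was -0.058. Calls used a log2 ratio beyond 0.322 in either direction, and 1.35% of 16089 genes passed it between the same cells, but none of the 9 marker genes. Among these, Slamf1 had 446 fragments in cells with a tag and 839 in cells without, a ratio of 0.26 (0.09 to 0.42), and its window 5.1 kb upstream had 0.49 (0.16 to 0.81). Ly6a had -0.315 (-0.765 to 0.103).

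**Figure D3:**
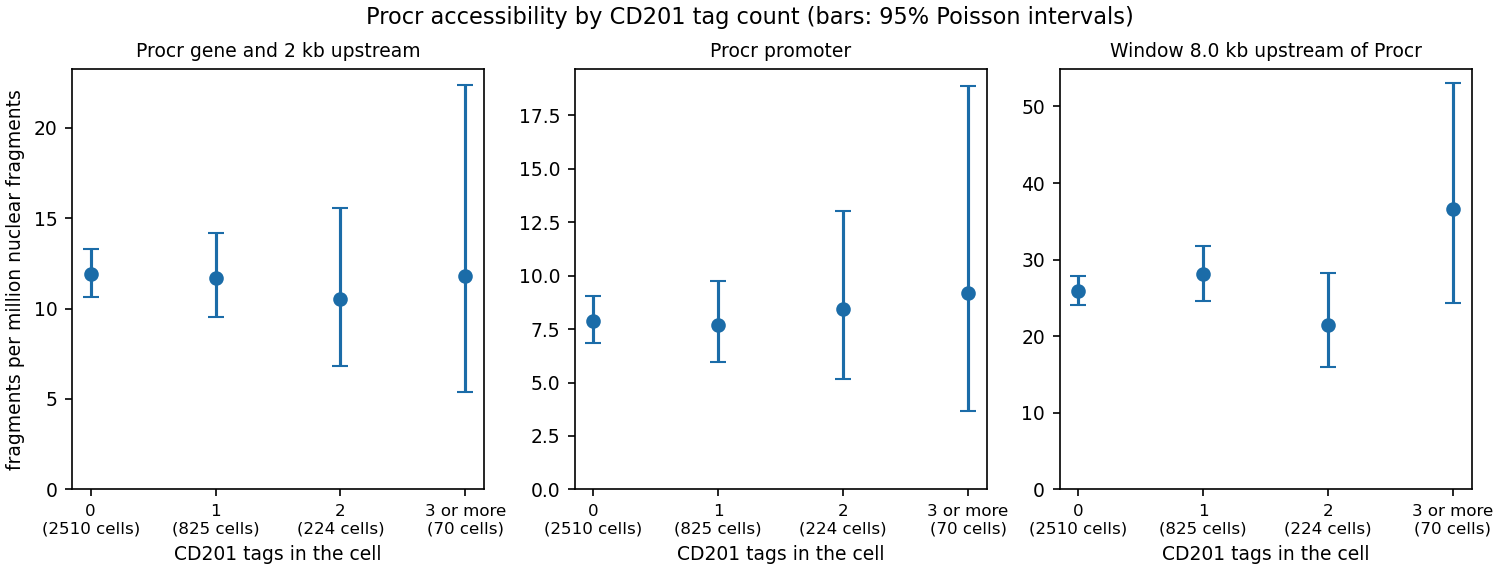
Procr FPM over the gene and 2 kb upstream, at the promoter and in the window 8.0 kb upstream, by the number of CD201 tags in the cell; points are sums over cells of 1 library and bars are 95% Poisson intervals. The intervals overlap across tag counts in all 3 panels.

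The other antibodies asked whether cells that differ in antibody tags differ at the marker genes. For each antibody, cells at or above the count nearest to the top 25% were set against those at or below the count nearest to the bottom 25%, and a gene was called past the same log2 ratio of 0.322 if it had 200 or more fragments over both groups and 20 or more expected in the smaller. Of 108 combinations of gene and antibody 85 could be compared, and 7 were called (8.24%), against 5.15% of combinations over all genes. The intervals are not adjusted for the number of combinations. All 9 genes could be compared for CD106, CD201 and P2X7R, and 4 to 8 for the others.

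For the markers that separate platelet-biased from multi-lineage HSCs in the study, the calls were few. CD274 (PD-L1) had 1 call among 7 genes, Cd34, against 4.25% of all genes. Cd34 had 178 fragments in high and 127 in low cells, 17.2 and 13.6 FPM, a log2 ratio of 0.34 (0.01 to 0.68), and its promoter gave 0.57 (0.05 to 1.12). Antibodies to CD61 (3.39% of all genes called), CD357 (2.03%) and CD27 (1.65%) had no call among 6, 7 and 7 genes. Among the 6 genes compared for CD61, Slamf1 had the largest value, 0.320 (0.076 to 0.567), just inside the threshold. Procr, which with 119 and 72 fragments fell just short of the minimum, had 0.51 (0.08 to 0.96), and its promoter 0.73 (0.18 to 1.31). The strongest window of Procr had -0.08 (-0.37 to 0.21) for CD61, from 211 and 193 fragments. Ly6a, also under the minimum, had 0.524 (0.054 to 1.002) for CD357, from 86 and 70 fragments, and 0.44 (-0.06 to 0.97) for CD274, from 83 and 55. For CD27 the ratios over the gene region lay between -0.158 and 0.108, and the Cd48 promoter had 1.147 (0.267 to 2.055) from 26 and 21 fragments. The strongest window of Cd48 went the other way, at -0.424 (-0.927 to 0.045) from 52 and 126 fragments. Cells high and low in CD274 had medians of 46 and 17 total tags, which include the CD274 tags themselves. Their medians of tags of the other antibodies were 11 and 8, and their ATAC depth was close, at 10296 and 10472. The medians of total tags in high and low cells were 36 and 22 for CD61, 36 and 25 for CD357 and 33 and 27 for CD27. Without the tags of the antibody itself they were 28 and 22, 29 and 24, and 31 and 27.

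Ly9 was called for 3 antibodies of the 5 it could be compared for. Its log2 ratio was 0.49 (0.12 to 0.84) for CD106, from 97 and 198 fragments, with 1.54% of all genes called. The ratio was 0.42 (-0.20 to 0.95) for CD68 (6.73%) and 0.33 (-0.13 to 0.76) for MERTK (2.72%), with intervals that held 0. At the Ly9 promoter CD106 gave 0.12 (-0.40 to 0.59), CD68 0.50 (-0.30 to 1.16) and MERTK 0.46 (-0.14 to 1.02). The strongest window of Ly9, 6.69 kb upstream, had values of the opposite sign, -0.39 (-1.11 to 0.24) for CD106, -1.15 (-3.22 to 0.08) for CD68 and -0.18 (-1.01 to 0.52) for MERTK, and each interval held 0. With antibody counts as centred log ratios within the cell, CD68 gave 0.16, MERTK 0.06 and CD106 0.60, all from fewer fragments than the minimum. The remaining calls came from rare antibodies. Among 71 cells with a CD163 tag, Slamf1 had -0.60 (-1.45 to 0.06) from 16 fragments, while its upstream window had 1.29 (0.39 to 1.99), and Cd9 -0.51 (-1.03 to -0.07) from 38, where 19.2% of all genes were called. Eng had 0.47 (0.05 to 0.84) among 82 cells with a CD206 tag, from 57 fragments, where 17.1% of genes were called, and its promoter had -0.52 (-1.94 to 0.44). CD183 (7.9% of genes called) and P2X7R (1.21%) gave no call among 7 and 9 genes over the gene region. Past 1.5-fold only Slamf1 by CD163 remained. At promoters 6 other combinations, named below, were called (15% of 40, against 6.74% over all genes). None of the 7 combinations called over the gene region had enough fragments to be compared there. The promoter ratio lay past the threshold in the same direction for Cd34 by CD274, Ly9 by CD68 and by MERTK, Cd9 by CD163 (-0.64, -1.77 to 0.18) and Slamf1 by CD163 (-1.11, -7.00 to 0.81), and of these intervals only that of Cd34 left out 0. With centred log ratios 4 of the 7 could be compared, those outside Ly9, and none was called, although Cd34 by CD274, at 0.318 (-0.009 to 0.649), fell just short of the threshold.

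**Figure D4:**
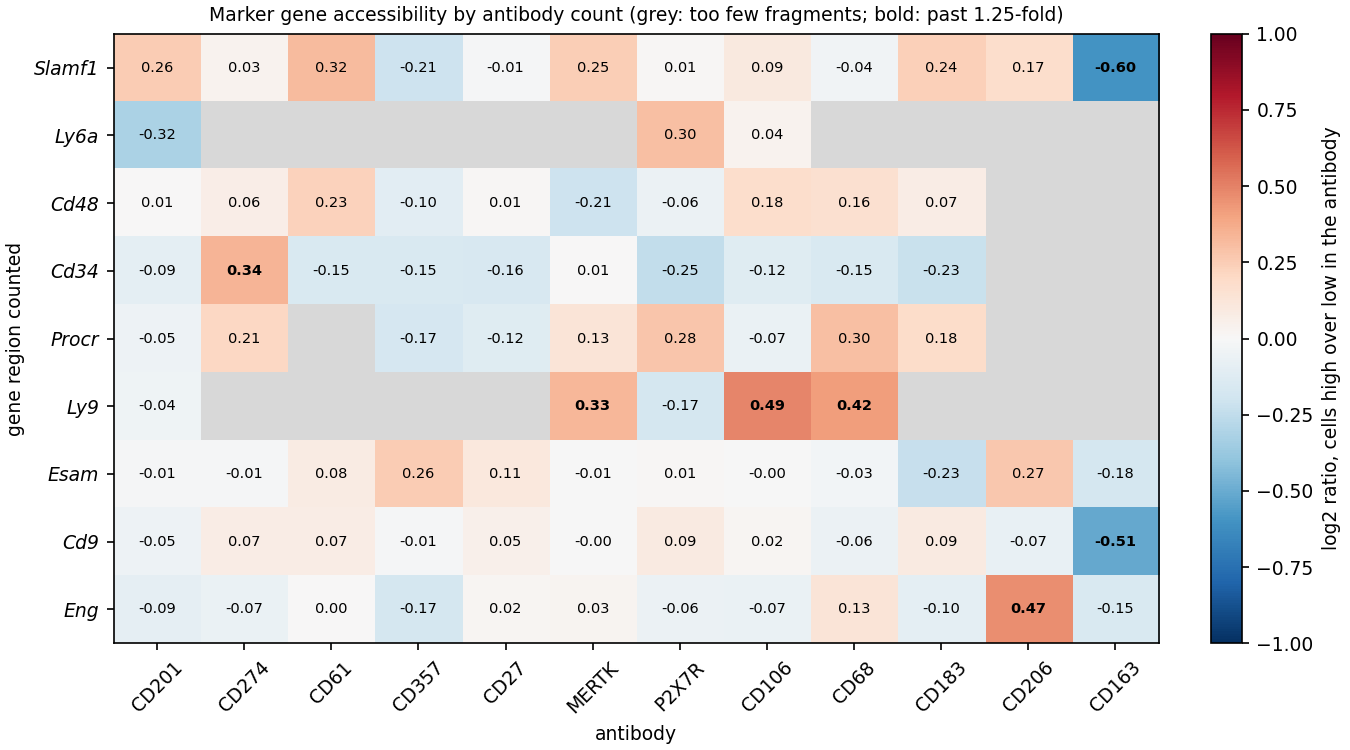
Log2 ratio of gene region fragments per nuclear fragment in cells high over cells low in each antibody (columns) for the 9 genes (rows); bold values are past the call threshold and grey cells had too few fragments. The 7 bold values are scattered over 5 genes, 3 of them at Ly9.

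Surface gates for platelet-biased (PLT) and multi-lineage (MUL) HSCs were drawn at the antibody medians. PLT cells exceeded the median of CD61 and of CD274 without exceeding that of CD27 or CD357, and MUL cells were the reverse. The gates held 342 and 61 cells, with medians of 37 and 26 total tags, which include those of the gating antibodies. These cells are not the same populations as the PLT- and MUL-HSCs that the study gated by flow cytometry or labelled by transfer from young cells. Only Esam, Cd9 and Eng had enough fragments to be compared. Cd9 had 300 fragments in the PLT gate and 40 in the MUL gate, 84.7 and 66.6 FPM, a log2 ratio of 0.33 (-0.13 to 0.86), and was called, as were 20% of 6484 genes. Esam had 0.07 (-0.48 to 0.71) and Eng -0.28 (-0.79 to 0.30). The intervals of all 3 held 0. Below the minimum, Cd48 had 65 and 3 fragments, a log2 ratio of 1.67 (0.27 to 4.19) whose interval did not hold 0, and Procr had 43 and 3, a ratio of 1.08 (-0.36 to 3.61). Ly6a went the other way, with 18 and 6 fragments and a ratio of -1.05 (-2.37 to 0.65), and the ratios of Slamf1, Cd34 and Ly9 lay between -0.171 and 0.126. The values for Cd48 and Procr rest on 3 fragments each in the MUL gate.

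Groups of cells with similar chromatin were formed from 5 kb windows of the 14 chromosomes that hold none of the 9 genes, so that the genes took no part in the grouping. This gave 4 groups, of 2088, 945, 325 and 271 cells, which were not named. Group 2 had the lowest median depth, 7953 nuclear fragments against 11235 in group 1, and group 3 the lowest median of tags, 19 against 29 to 33. Of the 8 genes with enough fragments, 5 were past a log2 ratio of 0.322 between their highest and lowest group, against 48.2% of 15504 genes, so the share of markers was near the background. The highest and lowest group were picked by the values compared, and the intervals do not allow for that choice.

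Cd9 was highest in group 4, with 257 fragments and 96.3 FPM (84.9 to 109), against 72.3 (69.0 to 75.7) in group 1, 73.0 (66.9 to 79.4) in group 2 and 66.2 (58.4 to 74.8) in group 3. Its interval in group 4 did not overlap those of the other groups, and its log2 ratio over all other cells was 0.43 (0.23 to 0.61). The summed level over a gene list was also highest in group 4 for 12 of 15 lists, some of which share genes, while the median gene tested had a log2 ratio of -0.009 in group 4 over other cells and Cd9 stood at percentile 97.8. The tetraspanin list, which includes Cd9, had 568 FPM in group 4 against 461 to 511 in the others, the HSC markers 1523 against 1360 to 1399, the megakaryocyte markers 234 against 208 to 213, the endothelial cell markers 279 against 233 to 260 and the myeloid markers 158 against 121 to 142. Their part in the result for Cd9 was not tested. Cd48 was lowest in group 4, with 24 fragments and 8.99 FPM (5.76 to 13.4), against 14.1 to 15.9 in the other groups, a log2 ratio of -0.75 (-1.43 to -0.19) over other cells. Slamf1 was highest in group 3, at 39.4 FPM (33.4 to 46.1), and lowest in group 2 at 30.8 (26.9 to 35.1). Procr ran from 8.69 (6.02 to 12.1) in group 3 to 14.98 (10.7 to 20.4) in group 4, with overlapping intervals. Group 3 also had the lowest mean of CD201 tags, 0.20 per cell against 0.43 to 0.44 in the other groups, and of CD274 tags, 11.3 against 21.0 to 24.3, and the part of the tags in the value of Procr was not tested. Ly9 ran from 7.16 to 9.32 FPM, Esam from 54.2 to 62.6, Eng from 44.3 to 50.6 and Cd34 from 14.6 to 18.2. Ly6a, with too few fragments to be called, ran from 4.60 in group 3 to 8.99 in group 4. Without the deepest 5% of cells only 2 groups formed, and 1 of the 9 genes was past the threshold, against 6.71% of all genes. The part of depth and of tag number in the groups was not tested.

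**Figure D5:**
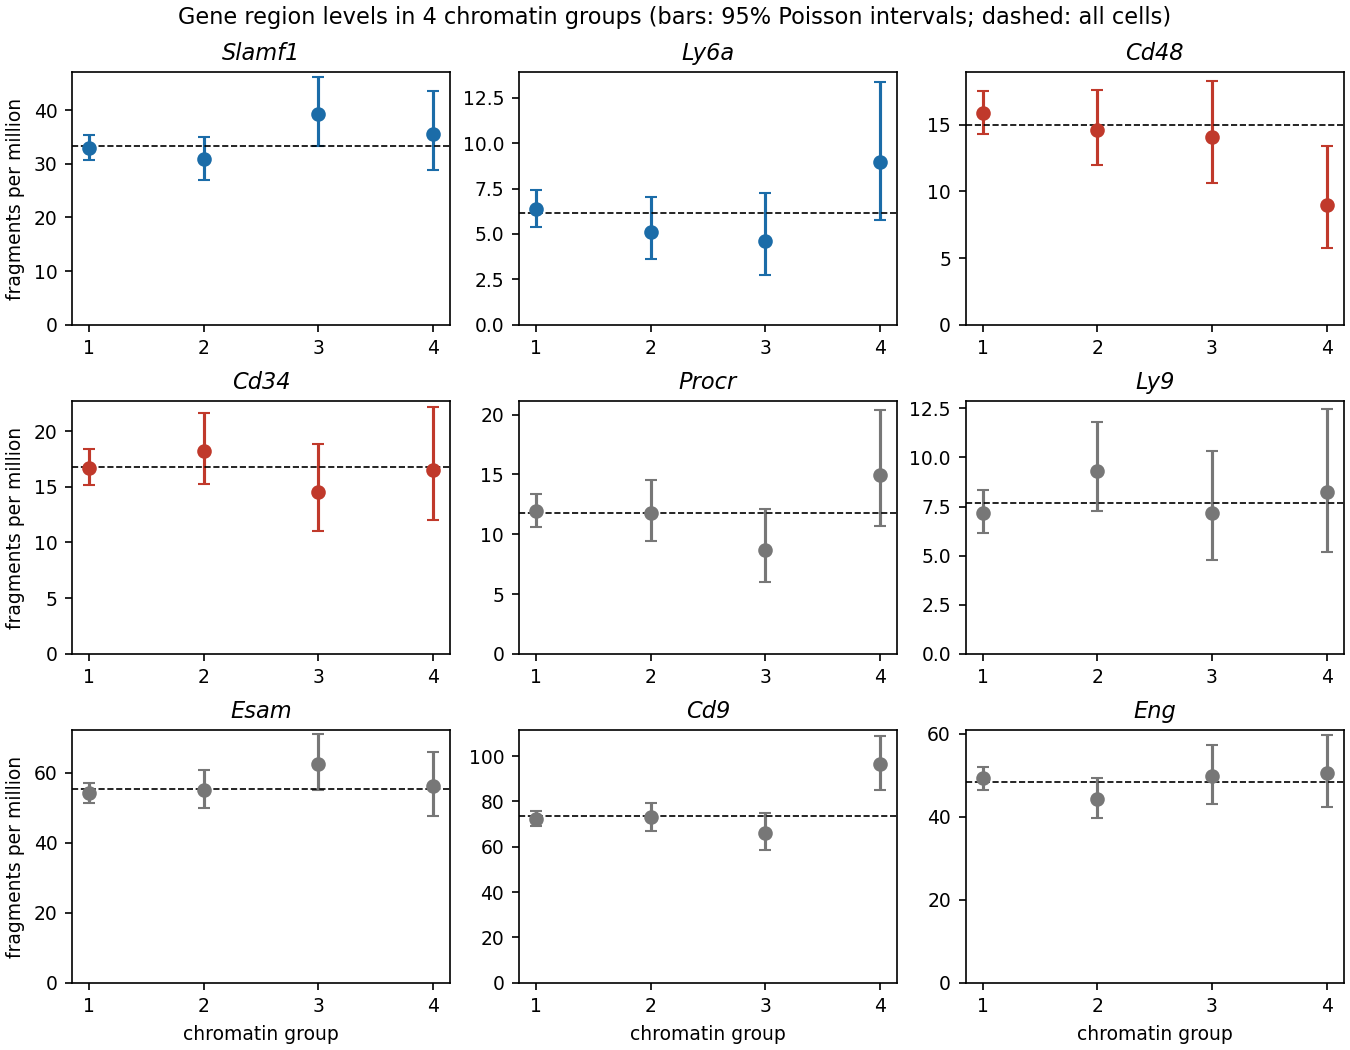
Gene region FPM of the 9 genes in each of 4 chromatin groups, with 95% Poisson intervals; the dashed line is the level over all 3629 cells. Cd9 stands above the line in group 4 and Cd48 below it, and all other intervals reach the line but that of Slamf1 in group 3, which lies just above it.

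Genes with the most similar pattern to each marker were sought over 40 finer groups on the same components, by Pearson correlation of log2(FPM + 1) against 16087 or 16088 other genes. The first was Inpp5b for Slamf1 (0.92), Serpinh1 for Ly6a (0.94), Paqr9 for Cd48 (0.92), Fbxl7 for Cd34 (0.92), Nkrf for Procr (0.92), Nr0b2 for Ly9 (0.94), Tbc1d15 for Esam (0.97), Pde3b for Cd9 (0.90) and Tspan33 for Eng (0.96). Next came Smndc1 and Cit for Slamf1, Ccrl2 and Tmsb10 for Ly6a, Prdx3 and Gm5737 for Cd48, Parp9 and Rpl17 for Cd34, Nkx2-6 and Lhfpl5 for Procr, Gm44596 and Smim10l2a for Ly9, Btf3l4 and Rai14 for Esam, Gpx4 and Phldb2 for Cd9, and Scn8a and Ogfrl1 for Eng. These values cannot be read as likeness between genes, since 16 of the 40 groups held under 10 cells and the smallest held 1. Over the 17 groups of 50 or more cells, a choice made after the data were seen, the same 27 pairs had correlations from -0.52 to 0.44, with a median of 0.023. The groups share 1 library and differ in depth, so none of the 27 pairs is reported as alike.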

How the data were processed

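The series held 3 libraries made from a single pool of sorted cells (ATAC, gene expression, antibody tags), each a group of its own, and every comparison was between cells of that pool. Per the submitters' processing notes and the file headers, the authors used Cell Ranger ARC 2.0.2 with mm10. That pipeline calls cells, collapses duplicate read pairs into fragments and shifts fragment ends for the transposase. All deposited values are counts without normalization: fragments, RNA UMIs per barcode and antibody tag counts, the last written by CITE-seq-Count (version not given in the sources used here). Blacklisted regions were not filtered and doublets were not removed. The CD106 entry of the antibody list carries another antibody's descriptive name, so identifiers were used.

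Barcodes called as cells with 10 or more summed tags were kept. Genes were protein-coding genes of GENCODE M21 (mm10), and a fragment counted where it overlapped a region by at least 1 base. Levels were scaled by nuclear fragments. For log2 ratios both counts were raised by 0.5, with exact conditional binomial intervals. Groups rested on windows of 5 kb with a fragment in 1% or more of cells, with TF-IDF weights, 30 components without the first, 20 neighbours, Leiden resolution 0.5 and seed 1. Fine groups were k-means. Deposited depth was 43706143 fragments over all barcodes.

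The 9 genes and all lists were chosen with earlier results of these data known, and so support nothing by themselves. Named were the 9 genes, the highest and lowest promoter of each list, and the 3 most similar genes by correlation. Alternatives were other tag minima, no deepest 5% of cells, thinning to 6000 fragments, insertions, short fragments, other promoter and window sizes, promoter scaling, centred log ratios, other call thresholds and other groupings. Scripts were tested on simulated data. Versions were leidenalg 0.10.2, igraph 0.11.9, scikit-learn 1.9.0, scipy 1.17.1, matplotlib 3.10.9, pandas 2.3.3, pysam 0.24.0, numpy 2.4.6 and Python 3.11.15.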

Additional observations from a re-analysis of the deposited data

How the results depend on the processing

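The number of genes below the median at the promoter was 6 under all alternatives but promoters of 250 bp on each side, where it was 5, but the genes were not always the same: at 250 bp Cd34 passed the median, and with 50 or more tags Procr passed it and Eng fell below it. Below the median over the gene region it was 3, but 5 with fragments shorter than nucleosomal DNA. The number with a distal strongest window was 6 or 7 throughout. All 10 values of Procr by CD201 tags lay inside the interval of the value given, between -0.218 with centred log ratios and 0.085 with cells thinned to 6000 fragments. Calls between genes and antibodies, 7 in all, numbered 1 past 1.5-fold (1.18% of combinations against 0.553% over all genes), 4 with centred log ratios (4.76% against 2.41%), 1 with 50 or more summed tags (363 cells, 9 combinations, 11.1% against 13.3%), 6 at promoters (40 combinations, 15% against 6.74%), 10 with a minimum of 50 fragments (10.5% against 6.92%) and 8 without the deepest 5% of cells (9.52% against 5.63%). Of these, 1, 0, 0, 0, 7 and 6 were among the 7, none of which could be compared at promoters or with 50 or more tags. Those at promoters included Cd34 by CD106 at -0.53 (-0.99 to -0.11) and Cd9 by MERTK at -0.33 (-0.64 to -0.04). The others were Eng by CD68 at 0.40, Esam by CD61 at 0.38, Procr by CD68 at 0.47 and Procr by P2X7R at 0.32. The intervals of these others held 0. Ly9 by MERTK was the call lost without the deepest cells, at 0.24. Between the gates the 1 call was 0 past 1.5-fold, at promoters, with centred log ratios and with 50 or more summed tags, where at promoters and with 50 or more tags no marker gene could be compared. Past 1.5-fold and with centred log ratios 3 marker genes could be compared, and 2.64% and 8.43% of all genes were called. Without the deepest 5% of cells 1 gene could be compared and was called, as were 13.3% of all genes. Eng by CD206 turned from 0.47 to -0.52 at the promoter. Between chromatin groups 5 genes were called, and 1 without the deepest 5% of cells. The causes of these changes were not tested beyond the loss of fragments or cells that some settings bring. Windows counted from every transcript start, the scan past the gene end, the upstream window of Procr, antibody and gate calls without the deepest cells and groups of 50 or more cells were chosen after seeing the data.

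No paired analysis was possible because each assay had 1 library and no comparison was between samples. With 38498362 nuclear fragments, genes such as Ly6a (236 fragments) allowed no comparison for 9 of the 12 antibodies, and intervals cover counting error only.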

Other observations

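Whether the distal windows open in the same cells as the promoters was described from fragments per 1000000 nuclear fragments (FPM) in cells with and without a fragment in the window. The Procr promoter had 8.94 FPM in the 827 cells with a fragment in the window 8.0 kb upstream and 7.55 in the other 2802, a log2 ratio of 0.25 (-0.13 to 0.61). For Eng the values were 11.9 and 12.5 (-0.06, -0.40 to 0.26), and for Slamf1 4.86 and 4.23 (0.24, -0.62 to 0.93). Each interval held 0, as did those for Ly6a, Cd48, Ly9 and Esam, and cells with a fragment in the window were deeper (median of 10935 against 10090.5 nuclear fragments for Procr).

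The required and the excluded SLAM receptor genes were set against each other in single cells. Slamf1 had 30.04 FPM over its gene region in the 489 cells with a Cd48 fragment and 34.0 in the 3140 without, a log2 ratio of -0.17 (-0.42 to 0.06), which held 0. By fragments of Cd34, Ly6a and Procr, the ratios of Slamf1 were 0.01, 0.12 and 0.05, and their intervals held 0 too.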
